A study of Mus musculus with 30 samples.

Results

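The 10 genes described here carry out MHC class I antigen presentation: the classical heavy chains H2-K1 and H2-D1, their light chain B2m, the peptide transporter subunits Tap1 and Tap2, the loading factor Tapbp, the immunoproteasome subunits Psmb8, Psmb9 and Psmb10, and the transactivator Nlrc5. They were taken by gene symbol from a table of 50600 genes, and all 10 were found. All 10 reached the mean of 5 normalized counts asked of a tested gene, as did 14646 genes of the table. Levels came from CEL-Seq, which counts tags from the 3' ends of polyadenylated transcripts, in 30 whole ovaries, both ovaries of each of 15 female C57BL/6 mice. A group of 7 mice had received 3% dextran sulfate sodium (DSS), a polymer that injures the colon lining, in drinking water for 7 days while sexually immature, and 8 littermates served as controls. Ovaries were collected from both groups after sexual maturity, at an age the sources used here do not give. The study asked what such treatment before puberty leaves in the adult ovary. Mice are named by group and label number, as in DSS_10.4.

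Class I molecules display peptides of a cell's own proteins at its surface, where CD8 T cells read them. The proteasome cuts the proteins, the TAP pump carries the peptides into the endoplasmic reticulum, and tapasin, encoded by Tapbp, holds the empty heavy chain with its light chain beta-2 microglobulin near the pump until a peptide fits. Interferon gamma is known to raise most of these genes, and it exchanges the catalytic subunits Psmb5, Psmb6 and Psmb7 of the constitutive proteasome for Psmb8, Psmb9 and Psmb10. NLRC5 has no DNA-binding domain of its own and is recruited by the factors that sit on the X and Y boxes of class I promoters. In the ovary, class I genes are transcribed by stromal, vascular and immune cells, and leukocytes are among their strongest sources.

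The promoters of the 3 genes that make up the surface molecule are shown because they share 1 arrangement of letters. RefSeq promoters (build GRCm38.p6) were found for 8 of the 10 genes and not for Nlrc5 and Tap2. Within the 250 bases before the RefSeq start, H2-K1, H2-D1 and B2m each hold the X2 core TGACG and the Y box in its ATTGG orientation with 20 bases between them. For H2-D1 all 250 bases lie in exons that GENCODE annotates to H2-D1, and the deposited gene begins at 35262730, before this match. For Tap1, Tapbp, Psmb8 and Psmb9 all 250 bases also lie in annotated exons. The 30 bases from the core to the box, both in capitals, read 5′ to 3′ on the strand of the gene:
H2-K1, chr17:34000359-34000388, minus strand: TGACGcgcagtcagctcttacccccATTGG
H2-D1, chr17:35262993-35263022, plus strand: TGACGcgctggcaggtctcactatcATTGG
B2m, chr2:122147609-122147638, plus strand: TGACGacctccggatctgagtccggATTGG
This spacing was noticed after the positions were seen, and it occurs in 30 of 32851 promoters of the same length (0.0913%), among them that of the further class I gene H2-M3. Either motif alone is common: on both strands TGACG is in 17.8% and CCAAT in 33.8% of these promoters. Tap1 and Psmb9, which share a promoter head to head, hold both motifs at another spacing.

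The stretch before the B2m start also holds the core of the interferon-stimulated response element (ISRE: GAAA, 2 bases of any kind, GAAA). In these exact letters 2.98% of promoters have it and no other of the 8 does. The H2-K1 stretch holds the kappa B core (GGGA, 3 bases of any kind, CCC), present in 4.77%. Both are printed over 120 bases with every match in capitals, for B2m from base 150 to base 31 and for H2-K1 from base 120 to base 1 before the start:
B2m, chr2:122147537-122147656, plus strand: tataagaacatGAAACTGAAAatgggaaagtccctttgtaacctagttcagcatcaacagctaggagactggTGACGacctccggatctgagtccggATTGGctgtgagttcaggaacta
H2-K1, chr17:34000348-34000467, minus strand: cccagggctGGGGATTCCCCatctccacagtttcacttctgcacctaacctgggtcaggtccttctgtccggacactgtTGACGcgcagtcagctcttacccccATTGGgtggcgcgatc
H2-D1 holds the same kappa B letters from base 171 to base 161 before its RefSeq start, inside annotated exons of H2-D1. The GAS letters TTCNNNGAA, present in 7.02% of promoters, were found in Psmb8 alone among the 8, and Tapbp held only Y boxes and Psmb10 none of the 5 motifs. A match of letters is a description and not a measured binding site. Looser forms of the motifs were not searched, so a missing match does not show that a site is absent.

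Libraries held 3095386 to 8564770 reads, with a median of 4305814. Granulosa cell markers summed to between 8363 and 14890 normalized counts per mouse, while of the theca cell markers Insl3 was at 0 in all 30 ovaries and Cyp17a1 was present. In 7 ovaries of 6 mice the oviduct gene Ovgp1 exceeded 5000 normalized counts, reaching 66720 in the left ovary of DSS_11.2. That ovary also had the highest level of Ptprc, the pan-leukocyte phosphatase CD45, at 372, against a median of 147 over mice. The left ovary of DSS_11.2 was the highest of the 30 for 4 of the 10 class I genes, and the right ovary of DSS_10.4 for 4 others, with Ovgp1 at 646.5 and Ptprc at 247 there. Results that rest on these 2 mice are given with and without them. In bulk tissue, fewer cells of a type and less RNA per cell cannot be told apart.

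B2m was by far the most abundant of the 10 transcripts and Nlrc5, Psmb9 and Tap2 were near the lower end of what was tested. B2m had 3871 ± 656 normalized counts (SD, n = 15 mice) and ranged from 2591 to 6364 over the 30 ovaries, above 99.2% of the genes tested. Tag counts do not scale with transcript length, so levels are compared between genes as they stand. Tapbp followed at 481.5 ± 67.5, H2-D1 at 308 ± 53.6, H2-K1 at 189 ± 29.1 and Psmb8 at 157 ± 29.4. Psmb10 was at 90.6 ± 6.99 and Tap1 at 45.4 ± 6.90 (n = 15 each). The 3 lowest were Nlrc5 at 14.5 ± 5.85, Psmb9 at 10.53 ± 2.56 and Tap2 at 5.45 ± 1.85. B2m lay above Tapbp in 15 of 15 mice with no overlap of the mouse ranges, as did Psmb8 above Psmb10, Psmb10 above Tap1 and Tap1 above Nlrc5. Mouse ranges overlapped between Tapbp and H2-D1, H2-D1 and H2-K1, H2-K1 and Psmb8, Nlrc5 and Psmb9, and Psmb9 and Tap2. The order within a mouse was still the same in 15 of 15 mice for Tapbp over H2-D1 and for H2-D1 over H2-K1, in 14 for H2-K1 over Psmb8 and for Psmb9 over Tap2, and in 11 for Nlrc5 over Psmb9.

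**Figure D1:**
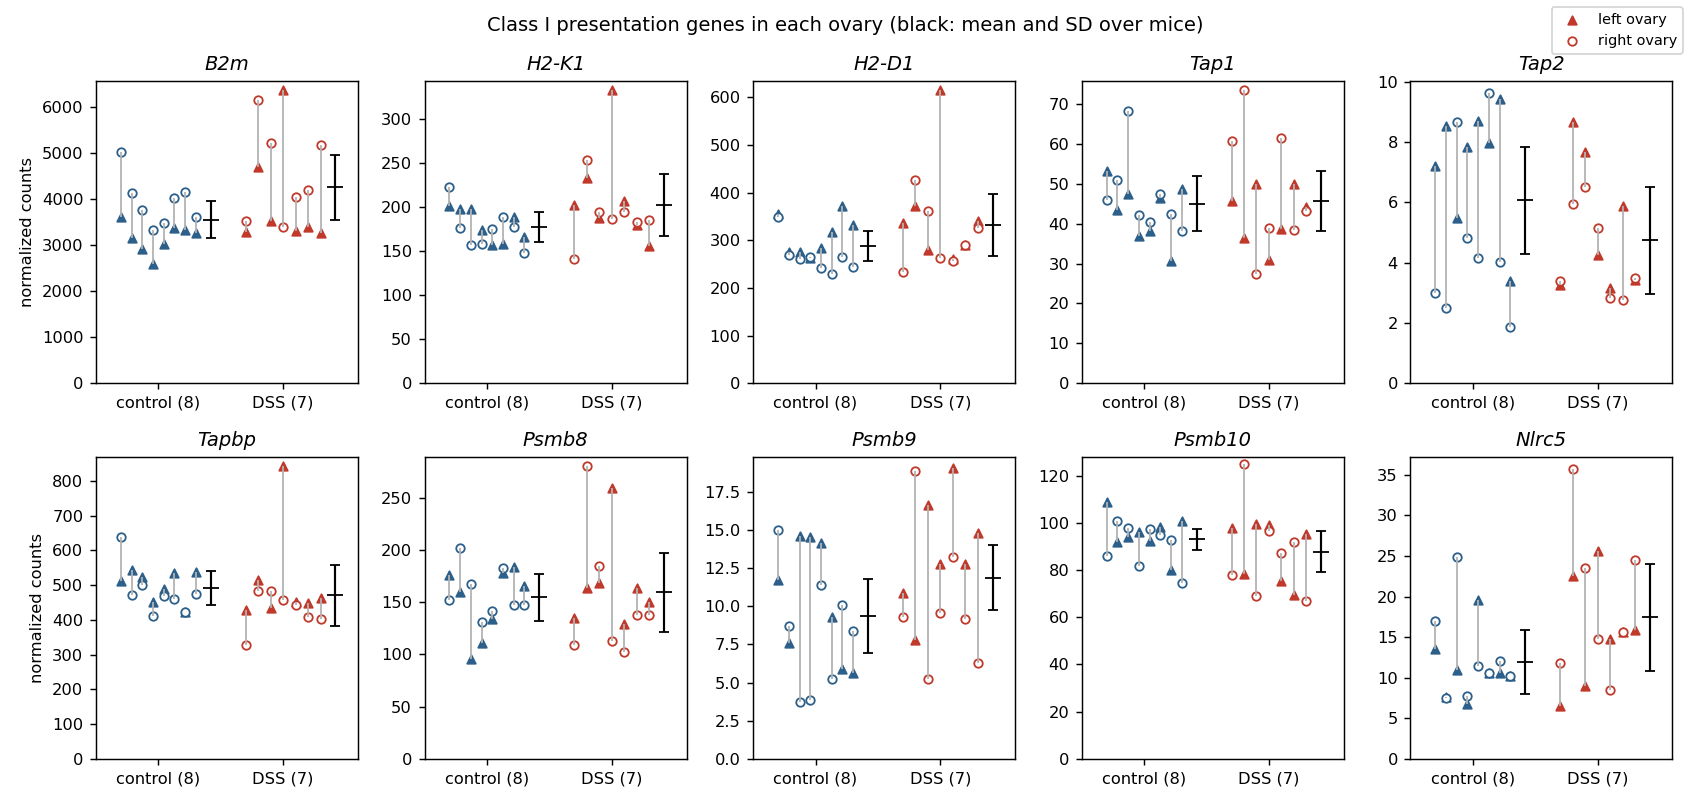
Normalized counts of the 10 class I presentation genes (vertical axes, each from 0) in the left ovary (filled triangles) and right ovary (open circles) of 8 control mice (blue) and 7 DSS mice (red); grey lines join the ovaries of a mouse, and black marks give the mean and SD over mice. Control and DSS mice overlap for every gene, and B2m is lower in the left ovary in 14 of 15 mice.

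How much of the spread is counting differed between the genes. Within groups, B2m varied between mice with a coefficient of variation of 14.7%, where counting alone would give 1.14%. For H2-D1 these were 16.2% and 4.06%, for Psmb8 19.4% and 5.72%, and for Nlrc5 36.5% and 18.6%. For Psmb9 (21.8% and 21.8%) and Tap2 (32.7% and 30.8%) the spread between mice was about that of counting, so a difference between mice was hardly detectable at this depth. Psmb10 (7.39% and 7.49%) also varied about as much as counting gives, but with 131 to 235 reads per mouse. A spread between mice as wide as that of B2m was not seen for Psmb10. Tap2 rests on 5 to 17 reads per mouse, Psmb9 on 13 to 50 and Nlrc5 on 14 to 62.

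Several of these genes overlap others, and the strand setting of the counting is not given in the sources used here. B2m (chromosome 2, 122147686 to 122153383, plus strand, ends as deposited, build GRCm38) overlaps Patl2 on the other strand, which had a mean of 5.16 normalized counts. Psmb9 (chromosome 17, 34181688 to 34187764, minus strand) and Tap1 (34187553 to 34197525, plus strand) overlap only at their 5' ends, away from the counted tags. Tapbp (chromosome 17, 33915899 to 33929588) overlaps Zbtb22 and Rgl2 on its own strand, with means of 62.1 and 119.6 normalized counts. Nlrc5 (chromosome 8, 94434356 to 94527572) overlaps 9330175E14Rik on the other strand at 4.33. The levels of Tapbp and Nlrc5 are therefore uncertain, and the size of the error cannot be read from these means. The last 300 transcript bases of H2-K1 (chromosome 17, 33995717 to 34000333) were 71.0% identical to those of H2-D1 (chromosome 17, 35262730 to 35267799) and 79.0% to those of H2-Q7, and tags shared between such copies may be assigned to either.

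Between DSS and control mice, none of the 10 genes passed the test over all genes. Transcripts of the surface molecule were measured higher in DSS mice. B2m had a median of 4210 normalized counts in the 7 DSS mice (3398 to 5419) against 3533 in the 8 control mice (2960 to 4306). The DSS mice DSS_10.4, DSS_11.2 and DSS_11.1 lay above every control mouse, and the other 4 within the control range. The log2 difference was 0.25 (SE 0.09, 95% interval 0.05 to 0.45), and 6 of 7 DSS mice lay above the control median. With limma the unadjusted p was 0.0153 and the adjusted p 0.524. H2-K1 measured 203 ± 35.5 against 178 ± 17.0 (log2 0.17, SE 0.09, limma adjusted p = 0.648) and H2-D1 332 ± 65.2 against 287 ± 31.8 (log2 0.19, SE 0.10, limma adjusted p = 0.648). Without DSS_10.4 and DSS_11.2, chosen after seeing the data as the DSS mice with the highest B2m, so that leaving them out lowers the B2m difference by construction, the log2 differences were 0.13 for B2m, 0.043 for H2-K1 and 0.052 for H2-D1. Without the ovaries over 5000 normalized counts of Ovgp1 they were 0.25 for B2m, 0.11 for H2-K1 and 0.066 for H2-D1. This setting drops both ovaries of DSS_11.1, the left ovaries of DSS_10.4 and DSS_11.2 and the right ovaries of control_10.5, control_13.4 and control_16.9. DSS_10.4 and DSS_11.2 are then represented by right ovaries and these control mice by left ovaries, so side and treatment are mixed. The part of side in these values was not tested.

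Nlrc5, the regulator, had a median of 16.2 normalized counts in DSS mice (9.18 to 29.2) and 10.9 in control mice (7.20 to 17.9). DSS_10.4, at 29.2, and DSS_11.2 and DSS_16.3, at 20.2 each, were above all control mice, and the other 4 lay within the control range. The log2 difference was 0.49 (SE 0.23, 95% interval 0.0064 to 0.98), with a limma p of 0.0474 before and 0.615 after adjustment. Without DSS_10.4 and DSS_11.2 it was 0.28.

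The transporter and the loading factor showed no common direction. Tap1 measured 45.7 ± 7.44 normalized counts after DSS and 45.04 ± 6.88 in controls (log2 0.018, 95% interval -0.22 to 0.26). Tap2, a handful of reads per library, was at 4.74 ± 1.78 against 6.07 ± 1.78 (log2 -0.31, 95% interval -0.81 to 0.20), and its difference was -0.55 without the Ovgp1-rich ovaries (limma adjusted p = 0.424). Tapbp was at 470.4 ± 87.2 against 491 ± 48.6 (log2 -0.075, 95% interval -0.27 to 0.12). The Tapbp difference was -0.19 without DSS_10.4 and DSS_11.2 (limma adjusted p = 0.887) and -0.16 without the Ovgp1-rich ovaries (adjusted p = 0.411), and it ran from -0.16 to -0.025 on leaving out each mouse in turn. Tap1 was at 0.13 without the Ovgp1-rich ovaries. In that setting side and treatment are mixed, as given above.

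Of the immunoproteasome subunits, Psmb9 had the largest difference. Its median was 10.96 normalized counts in DSS mice (10.07 to 16.13) and 8.65 in control mice (7.03 to 13.35), and 7 of 7 DSS mice lay above the control median, as they did for 4.83% of all genes tested. The groups overlapped, with 2 control mice inside the DSS range, and the log2 difference was 0.33 (SE 0.16, limma adjusted p = 0.639). Psmb8 was at 159.5 ± 37.6 against 155 ± 22.3 (log2 0.025, 95% interval -0.24 to 0.29) and changed sign without DSS_10.4 and DSS_11.2 (log2 -0.13). Psmb10 was at 87.8 ± 8.56 against 93.0 ± 4.53 (log2 -0.086, 95% interval -0.22 to 0.051), and at a log2 difference of -0.16 without DSS_10.4 and DSS_11.2 (limma adjusted p = 0.887). The tags of each subunit were also set against the sum with the constitutive subunit it replaces. After DSS, Psmb8 made up 7.29% ± 1.77 of the Psmb8 and Psmb5 tags (n = 7), and 6.92% ± 0.82 in controls (n = 8). Psmb9 made up 0.79% ± 0.12 and 0.63% ± 0.20 of the tags of Psmb9 and Psmb6, and Psmb10 5.38% ± 0.80 and 5.52% ± 0.84 of those of Psmb10 and Psmb7. In these whole ovaries the constitutive subunits supplied over 9 in every 10 tags of each pair on average.

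Counted together, 0 of the 10 genes passed adjustment for DSS against control with limma, edgeR or DESeq2, where 0.0% of all genes passed with limma. At an unadjusted limma p under 0.05 there were 2 of 10, B2m and Nlrc5, beside 7.98% of all genes. A further fit took the number before the dot of the mouse name as a replicate block. Its unadjusted limma p was 0.0354 for B2m, 0.126 for Nlrc5 and 0.047 for Psmb9. The median log2 difference of the 10 was 0.10, against 0.0018 over all genes tested, and 7 of 10 were above 0, against 50.6% of all genes. For all 10 the ranges of DSS and control mice overlapped, as they did for all but 0.0819% of genes.

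**Figure D2:**
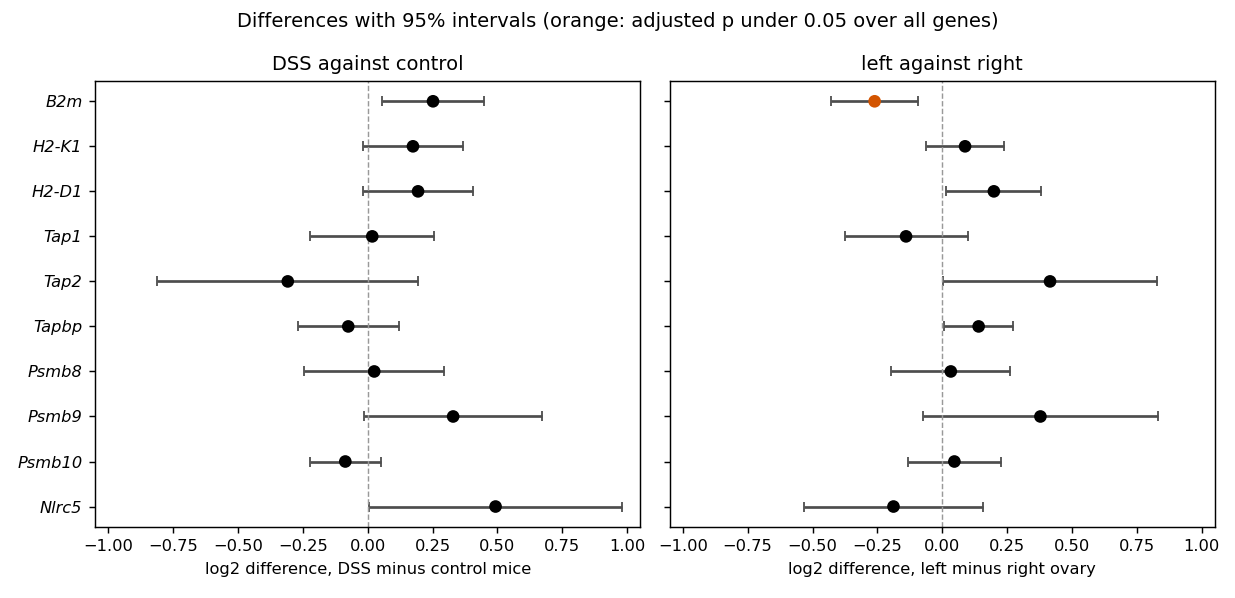
Log2 difference (points) and 95% interval (bars) of each gene for DSS minus control mice (left panel) and left minus right ovary within mice (right panel). In the DSS panel no gene passed adjustment; in the left-right panel B2m, at -0.26, is the gene marked orange, with an adjusted p of 0.0422.

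Markers of leukocytes, of oviduct and of fat were measured higher in DSS mice beside these differences. Ptprc reached 192 ± 48.1 normalized counts after DSS and 139 ± 20.2 in controls (log2 0.44, limma adjusted p = 0.398). All 5 leukocyte markers and all 5 tested B or plasma cell markers were measured higher in DSS mice, with none past adjustment. The leukocyte markers summed to 401 to 742 per DSS mouse and 374 to 574.5 per control mouse, those of B or plasma cells to 68.7 to 505 and 39.6 to 189, and those of T or NK cells to 20.2 to 57.1 and 11.45 to 37.7. Macrophage and dendritic cell markers summed to 294 to 365 and 249.2 to 361, those of endothelium to 423 to 531 and 456 to 523. The 4 oviduct markers were all measured higher in DSS mice, with a median log2 difference of 1.35, and so were the 4 adipose markers, with a median of 1.10, while the median of the leukocyte markers was 0.24. Oviduct markers summed to 359 to 34380 per DSS mouse and 225 to 21420 per control mouse, and adipose markers to 246 to 4703 and 144 to 3101. Car3, a carbonic anhydrase abundant in fat, was at 794 ± 840 against 383 ± 487, and Cfd, the complement factor adipsin secreted by fat cells, at 530.5 ± 538 against 282 ± 371, with summed levels that overlapped between groups and none of these markers past adjustment. Igkc, the immunoglobulin kappa constant region, was at 120.3 ± 112.6 against 46.3 ± 39.8, and Ighm at 39.1 ± 42.9 against 14.96 ± 6.46. The part of these tissues in the class I levels was not tested, apart from the Ptprc term and the ovaries left out for Ovgp1 given with the results.

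The wider pathway was examined through lists, in each of which 0 genes passed adjustment for DSS. Of the other class I heavy chains and class I-like genes, 12 of 20 in the table were tested, 5 of 12 were above 0, and the median log2 difference was -0.021. The smallest p there were those of Hfe, which controls iron uptake (60.2 ± 9.498 after DSS, 70.6 ± 4.70 in controls, log2 -0.24, limma adjusted p = 0.565), Fcgrt, the neonatal Fc receptor (log2 -0.17, adjusted p = 0.577), and H2-Q4 (log2 0.33, adjusted p = 0.636). Among 9 genes of peptide loading and trimming the median was -0.0023, with the glucosidase subunit Ganab at the smallest p (log2 -0.11, limma adjusted p = 0.648). The 14 constitutive core subunits of the proteasome had a median of -0.016 and the 9 activators and assembly factors 0.012. Of the interferon signalling genes, 14 of 18 were tested, with a median of 0.028. Irf1, a transcription factor that interferon induces, was at 114.5 ± 13.1 against 109.9 ± 8.06 (log2 0.054, limma adjusted p = 0.874). It is not among the genes with the smallest p of this list. Ifnb1, the gene of interferon beta, was at 0 in every ovary. Of the 10 factors that bind class I promoters with NLRC5, Nfya, a subunit of the factor that binds the Y box, had the smallest p (21.7 ± 3.91 against 28.6 ± 4.54, log2 -0.39, limma adjusted p = 0.479).

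Between the ovaries of a mouse, B2m was the 1 gene of the 10 that passed the test. Its level in left ovaries had a median of 3304 normalized counts (2591 to 6364) and in right ovaries 4044 (3330 to 6150). B2m was lower in the left ovary in 14 of 15 mice, DSS_11.2 being the exception, with 6364 on the left and 3391 on the right. Ranges of left and right ovaries overlapped. The log2 difference of left minus right was -0.26 (SE 0.08, 95% interval -0.43 to -0.09, limma adjusted p = 0.0422). A lower level in left ovaries was called for 5.6% of all genes, and a difference in either direction for 10.2%, so 1 gene of 10 is about the share of the whole table. A higher level in the right ovary in 14 or more mice was found for 2.36% of genes.

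The B2m call was close to the threshold of 0.05. Leaving out any 1 of the 14 mice other than DSS_11.2 took the limma adjusted p above it, to at most 0.0878, with the log2 difference at -0.23 in that case, whereas without DSS_11.2 the log2 difference was -0.34 (adjusted p = 1.7e-05). The call also did not hold without the filter on low genes (adjusted p = 0.0949) or without the mouse in the model (adjusted p = 0.0959), and held with edgeR (adjusted p = 0.0386) and without the mice that had an Ovgp1-rich ovary (log2 -0.32, adjusted p = 0.002).

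The heavy chains did not share the direction of B2m. H2-D1 was measured higher in the left ovary in 12 of 15 mice, at 331 ± 87.6 against 286 ± 56.1 (log2 0.20, SE 0.09, limma adjusted p = 0.171), and H2-K1 in 8 of 15, at 196 ± 43.8 against 183 ± 28.2 (log2 0.088). Tapbp was higher on the left in 13 of 15 mice (log2 0.14, limma adjusted p = 0.182), and Tap2 in 10 of 15 (log2 0.42, adjusted p = 0.21). Without DSS_11.2 the log2 difference was 0.13 for H2-D1, 0.034 for H2-K1 and 0.087 for Tapbp. Tap1 (log2 -0.14), Nlrc5 (log2 -0.19), Psmb8 (log2 0.033), Psmb9 (log2 0.38) and Psmb10 (log2 0.046) had 95% intervals that held 0. At an unadjusted p under 0.05 there were 4 of 10 genes (B2m, H2-D1, Tap2 and Tapbp), beside 23.7% of all genes, and the median of the 10 was 0.067, against 0.0068 over all genes.

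The ratio of B2m to its partners was higher on the right. It was chosen after the values were seen and is given as a description. A ratio within a library does not depend on the scaling. B2m tags per tag of H2-K1 and H2-D1 together numbered 6.71 ± 0.55 in left ovaries (5.92 to 7.76, n = 15) and 8.96 ± 0.66 in right ovaries (7.53 to 10.1, n = 15). The ratio was higher in the right ovary in 15 of 15 mice, DSS_11.2 included. Of all genes tested, 110 (0.751%) had a ratio to the same heavy chains that was higher in the right ovary in 15 of 15 mice, and 6 (0.041%) in the left. Against H2-D1 alone the ratio was 10.8 ± 1.19 on the left and 14.8 ± 1.204 on the right, higher on the right in 15 of 15 mice. Against H2-K1 alone it was higher on the right in 13 of 15. By treatment the ratio was 7.96 ± 0.57 after DSS (n = 7) and 7.61 ± 0.40 in controls (n = 8), with overlapping ranges. In the library names left ovaries carry odd running numbers and right ovaries even ones, so side and any handling that followed the numbering cannot be told apart.

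**Figure D3:**
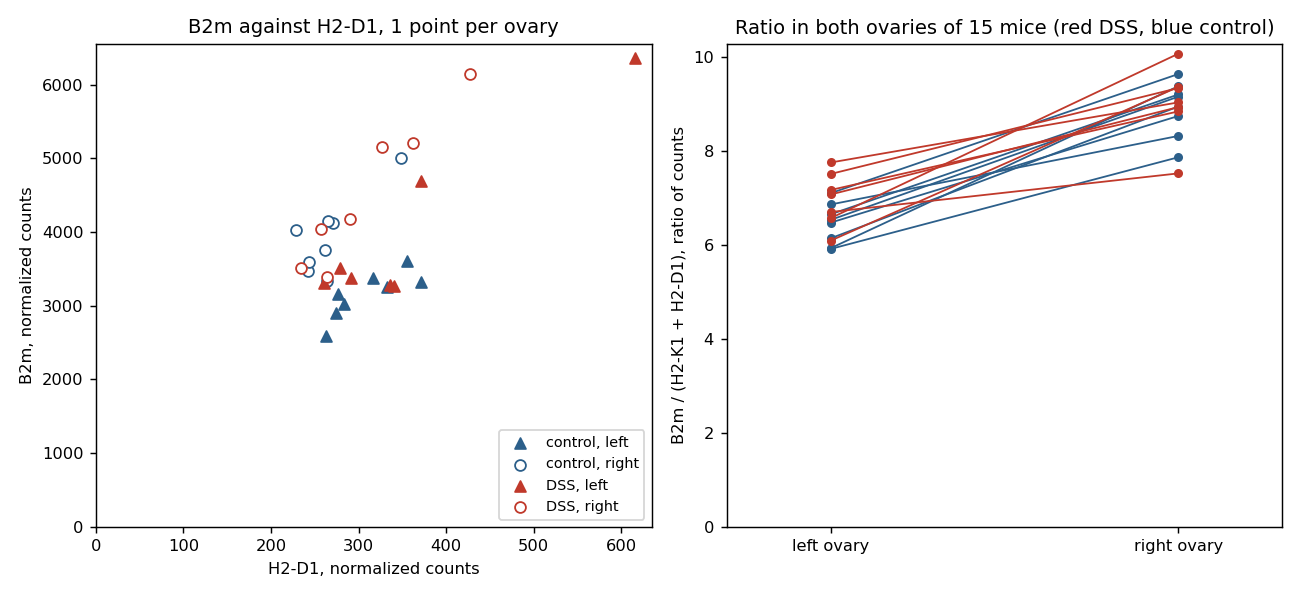
Left panel: B2m against H2-D1 in normalized counts, 1 point per ovary, left ovaries as filled triangles and right ovaries as open circles (blue control, red DSS). Right panel: tags of B2m per tag of H2-K1 and H2-D1 together in both ovaries of each mouse, joined by a line; the ratio is higher in the right ovary in 15 of 15 mice.

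Among the listed genes of the pathway that passed the left-right test, the proteasome core subunit Psmb4 was higher in left ovaries (2002 ± 198 against 1737 ± 137, log2 0.20, limma adjusted p = 0.00587), and the activator subunit Psme1 (386 ± 34.6 against 439.5 ± 35.03, log2 -0.19, adjusted p = 0.0208) and the assembly chaperone Pomp (381.5 ± 35.4 against 449 ± 25.3, log2 -0.24, adjusted p = 0.00153) were lower. The interferon gamma receptor subunit Ifngr2 was also lower on the left (log2 -0.21, limma adjusted p = 0.00952), and Creb1, which can bind the X2 box, was higher (log2 0.16, adjusted p = 0.0365). They were 1 of 14 core subunits, 2 of 9 activators and assembly factors, 1 of 14 interferon signalling genes and 1 of 10 promoter partners tested. Of the other heavy chains 0 of 12 passed, and of peptide loading and trimming 0 of 9, beside 10.2% of all genes. Of the cell markers, Csf1r (log2 0.31) and C1qa (log2 0.30) of macrophages were higher in left ovaries (limma adjusted p = 0.0343 and 0.0304), and Cyp17a1 was lower (log2 -0.52, adjusted p = 0.0188). Macrophage and dendritic cell markers summed to 268 to 450 in left and 199.8 to 326 in right ovaries and were higher on the left in 12 of 15 mice, opposite to B2m.

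Whether the DSS difference was the same on both sides was asked by comparing the left minus right values of DSS and control mice. With limma 0 of 10 genes passed, as did 0.0% of all genes, and at an unadjusted p under 0.05 there were 0 of 10 beside 8.49%. The estimates ran from -0.41 for Tap2 (SE 0.39) to 0.28 for Psmb8 (SE 0.22), and B2m had 0.11 (95% interval -0.23 to 0.45).

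Levels of the other 9 genes were then set against Nlrc5 over the 15 mice. With treatment as a term, the slope on Nlrc5 was above 0 for 9 of 9 genes, while 50.7% of all genes had a slope above 0. The median slope of the 9 was 0.22, against 0.0026 over all genes. None passed adjustment (limma, adjusted p from 0.935), nor did any gene of the table (0.0%). At an unadjusted p under 0.05 there were 3 of 9, B2m, H2-D1 and Tapbp, beside 4.68% of all genes. The slope, in log2 units per log2 unit of Nlrc5, was 0.28 for B2m (SE 0.08, 95% interval 0.10 to 0.46), 0.27 for H2-D1 (SE 0.10, 95% interval 0.06 to 0.47) and 0.22 for Tapbp (SE 0.09, 95% interval 0.02 to 0.41). The slopes of H2-K1 (0.18), Psmb8 (0.27), Tap2 (0.36), Psmb9 (0.19), Psmb10 (0.11) and Tap1 (0.043) had 95% intervals that held 0. Nlrc5 itself carries the counting error given above, and error in a predictor lowers a slope.

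As correlations over 15 mice, 9 in number, that of B2m with Nlrc5 was the highest: Pearson's r was 0.752 (permutation p = 0.00122) and Spearman's rho 0.65 (permutation p = 0.0104), and r was 0.728 without control_13.4 and control_10.6, the mice farthest from the Nlrc5 median on the log2 scale used. H2-D1 had r = 0.677 (permutation p = 0.00507, rho 0.55, 0.644 without those mice) and H2-K1 r = 0.574 (permutation p = 0.0254, rho 0.421, 0.609 without them). In normalized counts DSS_10.4 and control_13.4 are the farthest, and without these r was 0.517 for B2m (permutation p = 0.0692), 0.531 for H2-D1 (permutation p = 0.0569) and 0.355 for H2-K1 (permutation p = 0.242). Without DSS_10.4 and DSS_11.2 it was 0.541 (permutation p = 0.0578), 0.457 (permutation p = 0.116) and 0.189 (permutation p = 0.533), so that without DSS_10.4 and 1 further mouse none of these 3 genes passed 0.05. Leaving out mice with extreme values narrows the range, which tends to lower r. How far the relation rests on those mice therefore cannot be told from this. On leaving out each mouse in turn, the lowest slope with treatment as a term was 0.22 for B2m, 0.22 for H2-D1 and 0.13 for H2-K1. Psmb9 had r = 0.508, Psmb8 0.43, Tapbp 0.353, Psmb10 0.199, Tap2 0.154 and Tap1 0.101, each with a permutation p above 0.05. Within the 7 DSS mice r was 0.935 for B2m (exact permutation p = 0.00198), 0.875 for Psmb8 (exact p = 0.0119) and 0.798 for H2-D1 (exact p = 0.0317), and within the 8 control mice 0.276, -0.167 and 0.256 (exact p = 0.518, 0.679 and 0.556). For H2-K1, Tap2, Tapbp and Psmb10 r was also higher in DSS mice (0.591, 0.661, 0.593 and 0.567) than in control mice (0.249, 0.144, 0.431 and 0.384), and for Psmb9 (0.0637 and 0.545) and Tap1 (-0.184 and 0.401) it was lower. Without DSS_10.4 and DSS_11.2 too few DSS mice are left for an r of their own. Whether the relation differs between DSS and control mice was not tested. The r over 15 mice above pool both groups, so the difference between DSS and control mice enters them and their p. With group means removed, r was 0.664 for B2m, 0.593 for H2-D1 and 0.46 for H2-K1. On that scale B2m stood at the 99.6th percentile of all genes for its r with Nlrc5, H2-D1 at 98.8, Tapbp at 97.4, Psmb10 at 96.2, Psmb8 at 95.1 and H2-K1 at 94.8, and Tap1 at 60.9.

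**Figure D4:**
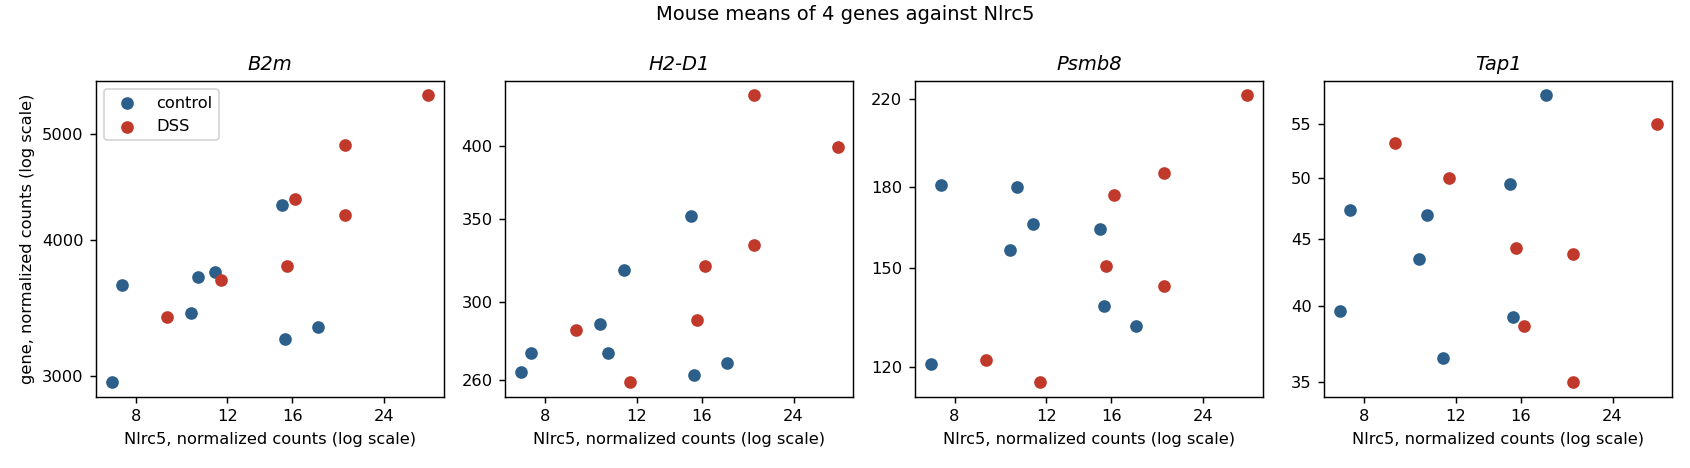
Mean of both ovaries in each mouse for B2m, H2-D1, Psmb8 and Tap1 (vertical axes, normalized counts, log scale) against Nlrc5 (horizontal axes, log scale), 8 control mice in blue and 7 DSS mice in red. Pearson's r is 0.752 for B2m, 0.677 for H2-D1 and 0.101 for Tap1, and DSS_10.4 is the point at the far right of each panel.

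**Figure D5:**
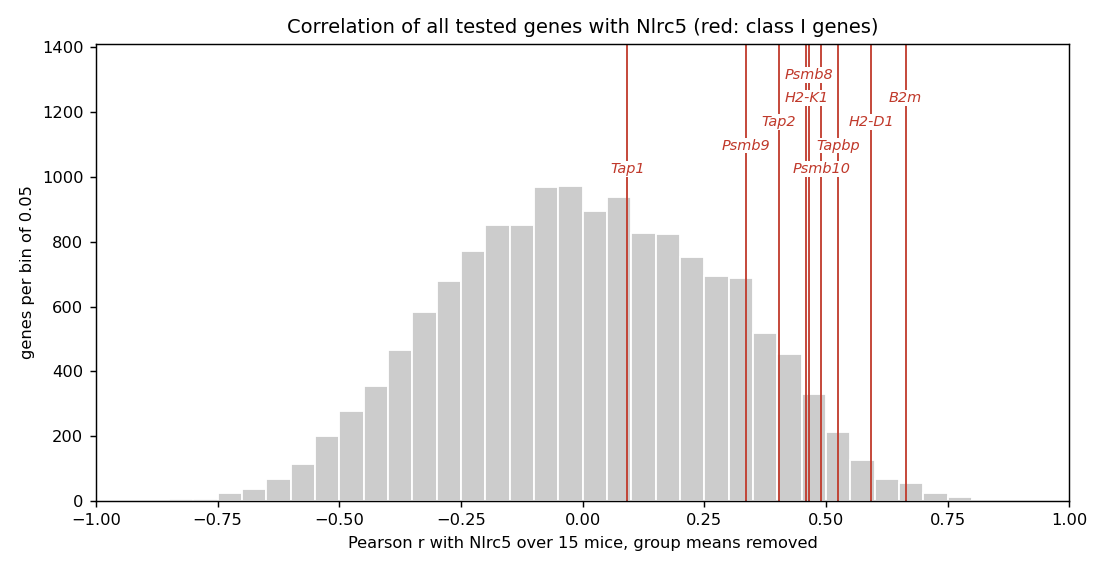
Histogram of Pearson's r with Nlrc5 over 15 mice for 14645 genes (group means removed; horizontal axis r, vertical axis genes per bin), with the other 9 class I presentation genes as red lines. B2m and H2-D1 lie in the upper tail (99.6th and 98.8th percentile) and Tap1 near the middle.

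Some markers of other tissues varied with Nlrc5 as well. With treatment as a term, 5 of 5 leukocyte markers had a slope on Nlrc5 above 0 (median 0.31), from 0.018 for Cd52 to 0.39 for Ptprc, and 4 of 4 adipose markers did (median 1.54), as did 4 of 4 oviduct markers (median 0.79), with none past adjustment. With group means removed, r with Nlrc5 was 0.658 for Ptprc, 0.0215 for Cd52 and 0.494 for Car3. Of the T cell markers it was 0.751 for Cd4 and 0.142 for the T cell receptor gene Trac. Of the macrophage markers it was -0.368 for Cd68 and 0.493 for Adgre1. These genes were chosen after their values were seen. Slopes with treatment as a term were above 0 for 5 of 6 macrophage and dendritic cell markers. The same held for 2 of 2 tested T or NK cell markers and 5 of 5 tested B or plasma cell markers. Ptprc correlated with Nlrc5 at r = 0.752 (permutation p = 0.00116) and with B2m, H2-K1 and H2-D1 at r = 0.822, 0.825 and 0.813, while for Tap1 it was -0.147 and for Tap2 0.079. With Ptprc as a further term in the fit the slope on Nlrc5 was 0.14 for B2m (0.28 without it), 0.068 for H2-D1 and -0.039 for H2-K1. Adipose markers were not used as a term. Without DSS_10.4 and DSS_11.2 the slopes were 0.17 for B2m, 0.15 for H2-D1 and 0.15 for Tapbp.

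A second view used only the difference between the ovaries of a mouse. There the left minus right difference of B2m had a slope of 0.32 on that of Nlrc5 (SE 0.12, 95% interval 0.08 to 0.56), that of Psmb8 0.45 (SE 0.15, 95% interval 0.14 to 0.77) and that of H2-D1 0.30 (SE 0.14, 95% interval 0.02 to 0.59). The slope was above 0 for 6 of 9 genes, beside 50.9% of all genes, with Tap2 at 0.20, Tapbp at 0.17 and H2-K1 at 0.073, and below 0 for Psmb9 (-0.37), Psmb10 (-0.17) and Tap1 (-0.14). None of the 9 genes passed adjustment with limma, and 0.0% of all genes did; 3 of 9 were under an unadjusted p of 0.05, beside 7.61%. Without DSS_11.2, whose left ovary was the highest of the 30 for 4 of the 10 genes, these slopes were 0.11 for B2m, 0.30 for Psmb8 and 0.098 for H2-D1. Without the mice that had an Ovgp1-rich ovary they were 0.06 for B2m, 0.25 for Psmb8 and -0.061 for H2-D1. The left minus right difference of Ptprc had a higher r with that of Nlrc5, 0.694 (permutation p = 0.00239), than any of the 9 genes, of which Psmb8 (0.551) and B2m (0.546) had the highest.

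The 10 genes did not vary as 1 block. Of their 45 pairs, 18 had an r above 0.5 over the 15 mice with group means removed, 7 were below 0, and the median was 0.46. As a description, with libraries and scaling shared by all points, the highest were B2m with Psmb8 (r = 0.878), B2m with H2-D1 (0.872), H2-K1 with Tapbp (0.785), H2-K1 with B2m (0.783) and H2-K1 with H2-D1 (0.756). Tap1 stood apart: 6 of the 7 pairs below 0 were its own, down to -0.256 with H2-D1, and its r with Psmb9, with which it shares a promoter, was 0.174. Psmb8 and Psmb9 had an r of -0.194. Counting error moves an r toward 0. Within groups Tap1 varied between mice by 15.76%, where counting alone would give 10.55%. Psmb9 and Tap2 varied about as much as counting gives. The part of counting in their low r was not tested. The 5 genes most like Nlrc5 by r with group means removed were Zfp239 (r = 0.922), Ltbp3 (0.848), Unc45a (0.831), Scfd2 (0.8) and Trim47 (0.799), none of them a class I gene. Most like the mean of the 10 genes were Fam227a (0.867), Gstt3 (0.864), Ifi47, an interferon-inducible GTPase (0.864), Ccl9, a chemokine (0.855), and Cmklr1, a chemerin receptor (0.85).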

How the data were processed

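The members and all lists were chosen with earlier results of these data known. The submitters' processing notes name the build GRCm38.p5 and the tools TopHat, HTSeq and DESeq2, with versions, strand setting and handling of molecular identifiers not given in the sources used here; each sample had a pool of 3 CEL-Seq primers. The authors deposited a signal per gene, normalized counts, which per the values are reads divided by 1 factor per library: 100% of values came out as whole reads within 0.0051 normalized counts. Intervals and counting spreads cover counting or sampling error only.

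Replicates were mice. Treatment was compared on the mean of a mouse's ovaries with limma 3.58.1 (trend, R 4.3.3, two-sided) on log2(value + 1), over 14646 genes averaging 5 or more, p adjusted by Benjamini-Hochberg, threshold 0.05. This log2(value + 1) scale understates fold changes of low genes. Left was compared with right with mouse as a block in the model, since both ovaries come from 1 animal; correlations of left with right deviations ran from -0.273 to 0.372 (median 0.181, over 0.1 in 10 of 15 mice). Slopes on Nlrc5 used the same model; correlations used two-sided permutations (100000 resamples over 15 mice, exact within groups). edgeR 4.0.16 and DESeq2 1.42.0 were run on the recovered reads as alternatives, beside other pseudocounts, filters, scaling, left-out mice and libraries, and single sides. The fits were tested on simulated data. For the fits on Nlrc5 its simulated level was raised far above the real one. That test therefore does not cover the counting error of Nlrc5 at its real depth. Promoter letters came from RefSeq and exon overlaps from GENCODE M21. All 10 members were named. From the lists came up to 3 genes with the smallest p for DSS, those past any test, and a few others. A result that this rule would name is not reported here.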

Additional observations from a re-analysis of the deposited data

Results flagged for a closer look

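For each of the 10 genes and each mouse group by side, and over mice, 60 groups of 7 or 8 values were examined for a sample that stood apart from the rest of its group, and 6 held one. Chance would flag about 1 group in 20. In DSS left ovaries, DSS_11.2 stood apart for H2-D1 (615 normalized counts, the next at 371.5), for Tapbp (843, the next at 514) and for Psmb8 (259, the next at 169). In control right ovaries, control_10.5 stood apart for H2-D1 (349, the next at 270.2) and for Tapbp (639, the next at 501), and control_11.4 for Tap1 (68.2, the next at 51.1). Ovgp1 was at 66720 in the first of these ovaries and at 41930 in the right ovary of control_10.5.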

How the results depend on the processing

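Under 17 settings other than leaving out single mice, 370 log2 differences and slopes of the 10 genes were recomputed: 16 changed sign, 2 lost the call, both of them B2m between left and right, and the others kept their direction and their side of the threshold. A filter at a mean of 20 dropped Tap2, Nlrc5 and Psmb9, and right ovaries alone dropped Tap2.

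For DSS against control, where limma called 0 genes of the table, 10 were called without ovaries over 5000 normalized counts of Ovgp1, 6 with edgeR, 52 with DESeq2, 11 in left ovaries alone, 1 in right ovaries alone and 3 with the number before the dot of the mouse name as a replicate block; none was a class I gene. Leaving out each mouse gave 0 to 13. The fit without Ovgp1-rich ovaries mixes side with treatment, as given above. Tap1 had a log2 difference of -0.028 in left ovaries alone, and Psmb8 of -0.076 without the Ovgp1-rich ovaries, -0.135 in right ovaries alone, -0.015 with the block and -0.126 without DSS_10.4 and DSS_11.2. Between left and right, the count of class I genes called was 0 with no filter and 0 with no replicate block, and 0 to 1 on leaving out each mouse. The count over all genes was 738 without mice with an Ovgp1-rich ovary, against 1488, and 1184 to 1580 on leaving out each mouse, and Psmb10 was at -0.021 without those mice. For the difference between sides, those mice left out gave 1 call over all genes and reversed B2m (-0.034), Tap1 (0.093) and Psmb10 (0.143); single mice gave 0 to 2 calls. In the relation to Nlrc5, H2-K1 was at -0.039 with Ptprc as a term, and Tap1 at -0.132 without DSS_10.4 and control_13.4, the mice farthest from the Nlrc5 median in normalized counts, a setting added after seeing the data. As correlations, Tap1 had r = -0.275 and Psmb10 -0.0637 without those 2 mice, and Psmb10 -0.205 without DSS_10.4 and DSS_11.2. In the within-mouse relation, H2-K1 was at -0.197, H2-D1 at -0.061, Tap1 at 0.051 and Tapbp at -0.073 without the mice with an Ovgp1-rich ovary, and H2-K1 at -0.11 without DSS_10.4 and DSS_11.2. The cause was not tested.

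Leaving out single mice changed the sign of small values. For DSS, Tap1 ran from -0.029 to 0.078 and Psmb8 from -0.059 to 0.096, and between left and right Psmb8 from -0.050 to 0.092. For the difference between sides, H2-K1 ran from -0.013 to 0.167, H2-D1 from -0.214 to 0.052, B2m from -0.074 to 0.188, Tap1 from -0.212 to 0.093, Nlrc5 from -0.30 to 0.043, Psmb9 from -0.097 to 0.349 and Psmb10 from -0.138 to 0.061. On Nlrc5, Tap1 ran from -0.057 to 0.15, and within mice H2-K1 from -0.098 to 0.166, Tap1 from -0.274 to 0.111 and Tap2 from -0.055 to 0.372. Depth limits Tap2, Psmb9 and Nlrc5, at a few reads per library.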
